A study of Mus musculus with 12 samples.

Results

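The transcripts described here encode 9 proteins that store, release, admit, extrude or sense calcium in the mouse oocyte, out of 24259 genes in the table. They were chosen by name, as genes known for calcium handling at egg activation, but with earlier results of these data known. They are *Itpr1*, *Trpm7*, *Trpv3*, *Cacna1h*, *Camk2g*, *Atp2a2*, *Atp2b1*, *Orai1* and *Stim1*. RNA was sequenced from germinal vesicle (GV) oocytes of WT mice and of *Lsm14b*-KO mice, the latter homozygous for the Lsm14b tm1a(KOMP)Mbp allele, a reporter-tagged insertion present in all tissues. LSM14B is an RNA-binding protein of oocyte ribonucleoprotein granules. Both genotypes were on the C57BL/6J background, were 3 weeks old and had received 5 IU of PMSG, a hormone that stimulates follicle growth, 46 h before collection. About 1500 oocytes were lysed with cycloheximide, which holds ribosomes on mRNA, and spread over a sucrose gradient cut into 28 fractions. Fractions 1 to 10 made the RNP pool, which holds mRNA with few or no ribosomes, and fractions 11 to 28 made the polysome pool, with 3 libraries for each of the 4 combinations of genotype and pool. The oocytes of each lysate came from many mice, and whether the 3 libraries of a group came from separate gradients is not given in the sources used here, so the p-values measure the spread between libraries only.

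Levels are in FPKM, fragment numbers corrected for transcript length and library size, and so are shares of each pool's own RNA rather than amounts per oocyte. The depth was estimated at 4.60 M to 7.84 M fragments per library (M, mega). *Lsm14b* averaged 13.3 FPKM in WT polysomes and 0.116 in KO polysomes, and 30.4 and 0.319 in the RNP pools, with no overlap between genotypes in either pool, as the labels require. The 8 oocyte markers were present in all groups, with summed levels of 4962 FPKM or more in every library. Of the 8 granulosa and cumulus markers, 4 reached 1 FPKM in some WT polysome library, 4 in WT RNP and 7 in either KO pool. Their sum was 27.2 to 75.5 FPKM in WT polysomes against 78.9 to 103 in KO polysomes, and 31.3 to 35.3 in WT RNP against 42.7 to 64.7 in KO RNP. The KO mean was above the WT mean for 5 of the 8 in polysomes, below it for *Cyp19a1* and *Kitl* and equal for *Foxl2*, and above it for 8 of 8 in RNP. Their part in the genotype differences was not tested, and since these are bulk pools, more cells of a type and more RNA per cell cannot be told apart. *Foxl2* was listed at 0 in all but a KO RNP library. The 4 theca and stroma markers summed to at most 2.38 FPKM, and of the 4 blood and endothelium markers *Hbb-bs*, *Hba-a1* and *Ptprc* were at 0 throughout, while *Pecam1* was at 13.2 to 41.0 FPKM. The KO polysome library 2 stood apart, with 34.7% of its FPKM in its 10 highest genes against 11.6% to 14.7% in the others. The members' calls of the main comparisons that rest on it are also given without it. A model of all 12 libraries, added later, was not refitted without it, so the calls of that model include it.

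A mammalian egg is activated at fertilization by repeated rises of cytoplasmic calcium. Sperm-delivered phospholipase C makes IP3, which opens IP3 receptors in the membrane of the endoplasmic reticulum (ER). The SERCA pump refills the ER, the plasma membrane pump PMCA extrudes calcium, and channels of the plasma membrane let calcium in to keep the rises going. The γ form of calcium/calmodulin-dependent kinase II reads the rises and triggers exit from meiotic arrest. Much of this machinery is laid down while the oocyte grows, and IP3-induced release becomes more sensitive as GV oocytes mature.

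The 9 transcripts spanned a wide range of levels. *Camk2g*, *Atp2a2* and *Orai1* were the most abundant, with medians over the 12 libraries of 56.9, 66.6 and 41.3 FPKM. *Atp2b1* followed at 22.7 FPKM, *Cacna1h* at 9.07, *Itpr1* at 3.96 and *Trpm7* at 2.76. *Stim1* had a median of 0.941 FPKM and reached 1 FPKM in 6 of 12 libraries, and *Trpv3* had a median of 0.122 and reached 1 FPKM in 1 library. In WT polysomes the ranges of the 3 libraries separated *Camk2g* from *Atp2a2*, and *Orai1* from *Atp2b1*, but not *Atp2a2* from *Orai1* or *Itpr1* from *Trpm7*. In WT RNP the order changed at the top, where *Atp2a2* had the highest median and the ranges of *Atp2a2*, *Camk2g* and *Orai1* overlapped.

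**Figure D1:**
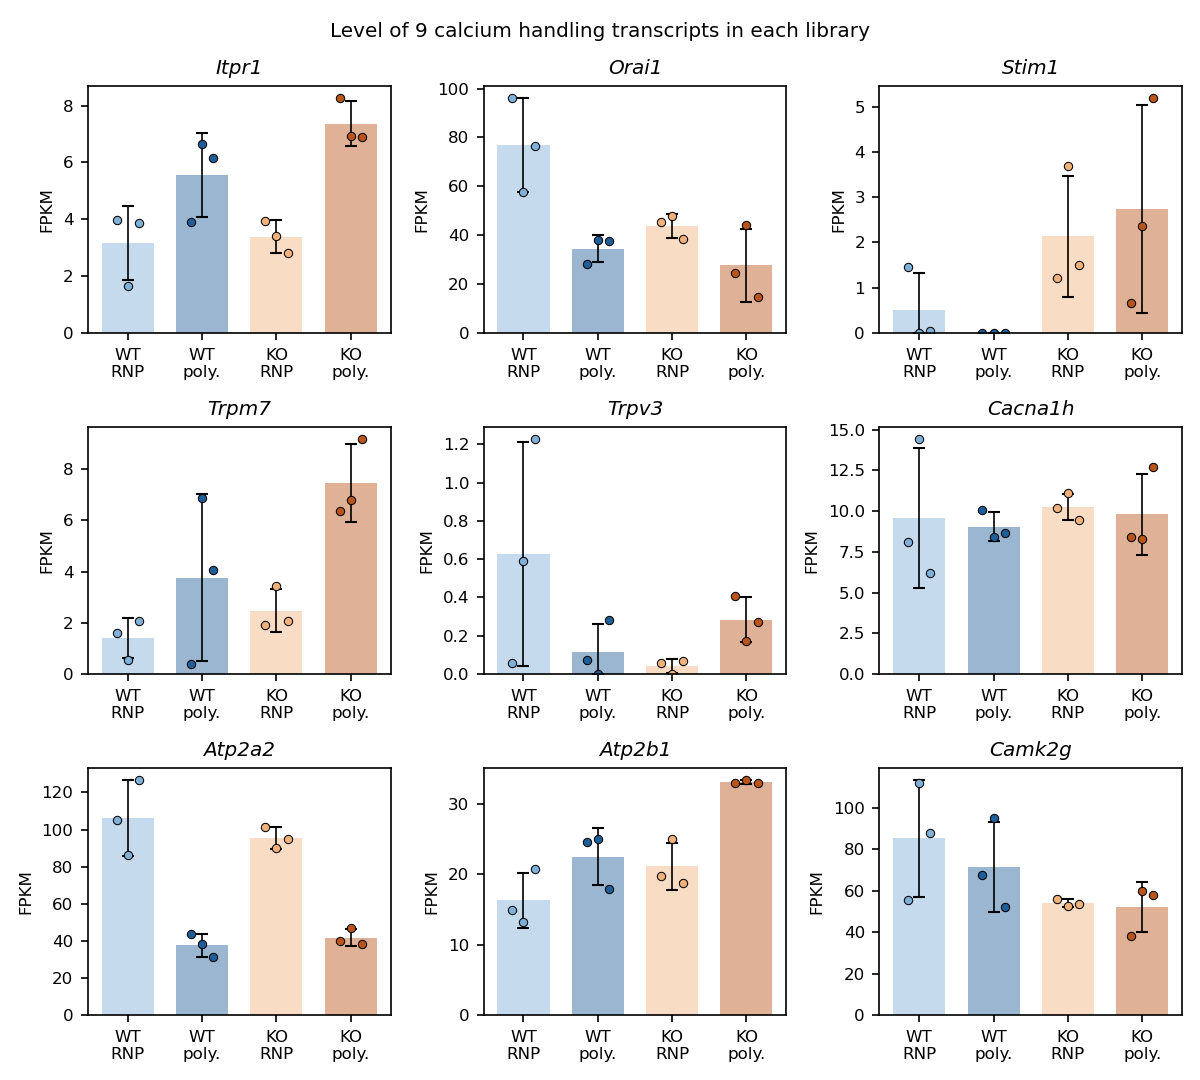
Level of each of the 9 transcripts in FPKM (vertical axis, linear, starting at 0 and scaled per gene) in WT and KO RNP and polysome pools. Points are libraries, bars are means of 3 libraries and error bars are SD, cut at 0 where they would fall below it. *Atp2a2* stood above 86 FPKM in all 6 RNP libraries and below 48 in all 6 polysome libraries.

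For most of these families the gene named here had the highest transcript level, and protein was not examined here. *Camk2g* was at 38.1 FPKM or more in every library, whereas *Camk2a* and *Camk2b* were listed at 0 in all 12 and *Camk2d* reached at most 0.383. The ER pump was represented by *Atp2a2* alone, with *Atp2a1* and *Atp2a3*, known for muscle and for blood and epithelial cells, listed at 0 in all 12 libraries. *Atp2b1* exceeded *Atp2b2*, *Atp2b3* and *Atp2b4* in 12 of 12 libraries, and its median was 20.8 times that of *Atp2b4*, the next of the family. *Orai1*, the pore of store-operated entry, exceeded *Orai2* and *Orai3* in 12 of 12 libraries, with 10.0 times the median of *Orai3*. *Cacna1h*, the T-type channel Cav3.2, likewise exceeded *Cacna1g* and *Cacna1i* in 12 of 12, at 7.85 times the median of *Cacna1i*.

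The other families were ordered differently. *Itpr1* encodes the IP3 receptor best known from mammalian eggs, yet at the transcript level it exceeded *Itpr2* in only 5 of 12 libraries, with a median of 3.96 FPKM against 6.38. *Itpr2* lay between 5.11 and 8.30 FPKM and *Itpr3* below 1 FPKM throughout. Of the ER calcium sensors that open ORAI channels, *Stim1* exceeded *Stim2* in 2 of 12 libraries, and *Stim2* had a median of 3.02 FPKM. *Trpm7* exceeded its closest relative *Trpm6* in 10 of 12 libraries. *Trpv3* was below *Trpv2* and *Trpv4* in 10 of 12 libraries each, although these too were low, with medians of 0.766 and 1.50 FPKM.

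**Figure D2:**
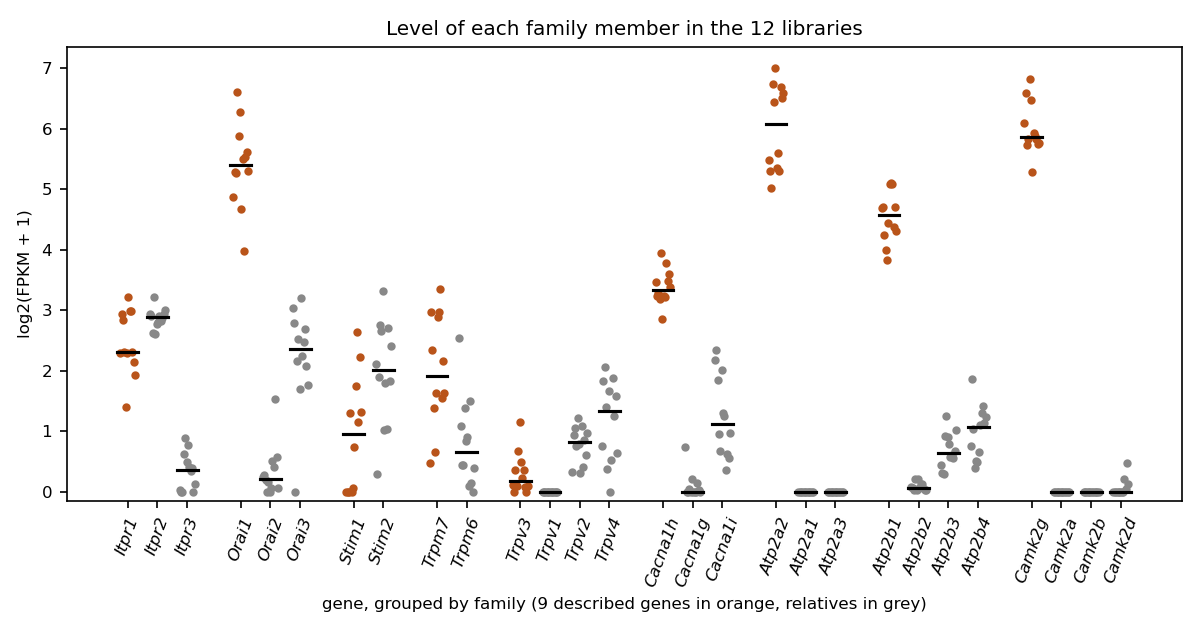
Levels of the 9 genes (orange) and their relatives (grey) as log2(FPKM + 1), with a point for each of the 12 libraries and a black line at the median, grouped by family along the horizontal axis. *Camk2g* and *Atp2a2* stood alone in their families, while *Itpr1* and *Stim1* had medians below those of *Itpr2* and *Stim2*.

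The comparison of pools within a genotype asks which of these mRNAs held a larger share of one pool than of the other. It does not give the fraction of an mRNA that carried ribosomes. In WT oocytes 0 of 7 transcripts tested were higher and 2 were lower in polysomes than in RNP, *Atp2a2* and *Orai1*, where 14.7% of all 9574 genes tested were called, 7.97% higher and 6.72% lower. In KO oocytes 3 of 8 were higher, *Itpr1*, *Trpm7* and *Atp2b1*, and 1 was lower, *Atp2a2*, where 29.2% of 9851 genes were called, 15.5% higher and 13.8% lower. A call is a limma adjusted p under 0.05 on log2(FPKM + 1) among genes at 1 FPKM or more in at least 3 of the 6 libraries. The median difference of the tested transcripts, polysome minus RNP, was -0.002 in WT and 0.03 in KO, against -0.09 and -0.04 over all genes. The 3 libraries of each pool did not overlap for 2 of 7 transcripts in WT and 4 of 8 in KO, against 34.6% and 44.2% of all genes tested. Without KO polysome library 2, 1 transcript was higher and 2 were lower in KO polysomes, *Trpm7* against *Atp2a2* and *Orai1*. Of all 9561 genes tested there, 13.5% were called higher and 13.4% lower. *Trpv3* did not pass the filter in either genotype, nor did *Stim1* in WT.

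*Atp2a2* (chr5:122453513-122502225, minus strand, GRCm38) encodes SERCA2, the pump that returns calcium to the ER. In WT oocytes it was at 43.5, 38.2 and 31.3 FPKM in the polysome libraries and at 105, 86.0 and 127 in the RNP libraries. In KO oocytes it was at 39.8, 47.2 and 38.4 FPKM in polysomes and 102, 90.1 and 94.8 in RNP. The pools did not overlap in either genotype, and RNP levels were 2.82 times polysome levels in WT and 2.29 times in KO. The difference was -1.46 in WT (SE 0.213, limma adjusted p = 0.0029) and -1.18 in KO (SE 0.136, limma adjusted p = 0.000257). The exact permutation p of 3 against 3 libraries was 0.1 in each genotype, the smallest it can be. *Atp2a2* was the transcript of the 9 whose call held under every alternative run, with differences of -1.60 to -1.33 in WT and -1.27 to -1.12 in KO when any library was left out.

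*Orai1* (chr5:123015074-123030456, plus strand) was at 96.2, 57.6 and 76.7 FPKM in WT RNP and at 28.1, 37.9 and 37.5 in WT polysomes. The groups did not overlap, and RNP levels were 2.23 times polysome levels, a difference of -1.12 (SE 0.241, limma adjusted p = 0.017). Without WT RNP library 1 the difference was -0.94 (limma adjusted p = 0.0716) and without WT RNP library 3 it was -1.10 (0.0587). In KO oocytes *Orai1* was at 24.5, 44.1 and 14.7 FPKM in polysomes and 45.3, 47.9 and 38.4 in RNP, where the groups overlapped through polysome library 2. The difference there was -0.77 (SE 0.331, limma adjusted p = 0.115), and without polysome library 2, the library that stands apart, it was -1.16 (limma adjusted p = 0.00922).

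*Itpr1* (chr6:108213096-108551109, plus strand) lay on the polysome side. It was at 8.27, 6.92 and 6.89 FPKM in KO polysomes against 3.96, 3.40 and 2.82 in KO RNP, and the groups did not overlap. The difference was 0.93 (SE 0.286, limma adjusted p = 0.0365), and the call was lost on leaving out any of the 6 libraries, with adjusted p of 0.0569 to 0.12. In WT it was at 3.89, 6.64 and 6.14 FPKM in polysomes and 3.96, 1.65 and 3.88 in RNP, with overlap through polysome library 1, and the difference of 0.69 was not called (SE 0.468, limma adjusted p = 0.373).

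*Trpm7* (chr2:126791565-126876230, minus strand) encodes a channel fused to a kinase that carries calcium and magnesium into the egg. In KO oocytes it was at 6.37, 6.79 and 9.18 FPKM in polysomes and 1.90, 3.45 and 2.08 in RNP, 3.01 times higher in polysomes and without overlap. The difference was 1.29 (SE 0.324, limma adjusted p = 0.0156), and 1.18 and 1.22 (limma adjusted p = 0.0612 and 0.0561) without KO RNP library 1 or 3. The WT polysome libraries disagreed, at 0.386, 6.86 and 4.04 FPKM against 1.59, 0.565 and 2.08 in RNP, so that the WT difference of 0.71 had an SE of 0.693 (limma adjusted p = 0.545).

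*Atp2b1* (chr10:98914406-99026143, plus strand) encodes PMCA1, which pumps calcium out of the cell. It was at 32.9, 33.4 and 33.0 FPKM in KO polysomes and at 19.7, 24.95 and 18.7 in KO RNP, a difference of 0.63 without overlap (SE 0.176, limma adjusted p = 0.0243). That call was lost without KO RNP library 1 (0.59, limma adjusted p = 0.0868), KO RNP library 3 (0.56, 0.0932) or KO polysome library 2 (0.63, 0.0521). In WT the levels were 24.6, 24.97 and 17.9 FPKM in polysomes and 14.9, 13.2 and 20.7 in RNP, which overlapped, and the difference of 0.45 was not called (SE 0.294, limma adjusted p = 0.35).

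*Camk2g* and *Cacna1h* were not called between pools in either genotype. *Camk2g* (chr14:20734875-20794088, minus strand) was at 67.6, 94.9 and 52.1 FPKM in WT polysomes and 55.6, 112 and 87.7 in WT RNP, and the difference was -0.23 with a 95% interval of -0.91 to 0.45. In KO it was at 38.1, 59.8 and 57.8 FPKM in polysomes and 56.0, 52.3 and 53.4 in RNP, with an interval of -0.50 to 0.34. *Cacna1h* (chr17:25374285-25433783, minus strand) was at 10.1, 8.43 and 8.67 FPKM in WT polysomes and 8.11, 14.4 and 6.19 in WT RNP, with an interval of the difference of -0.91 to 0.90. Its KO levels were 8.40, 8.31 and 12.7 FPKM in polysomes and 10.2, 11.1 and 9.47 in RNP, with an interval of -0.66 to 0.49. All but that of *Camk2g* in KO reach beyond the size called for *Atp2b1* in KO, so equal shares of the pools were not shown.

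**Figure D3:**
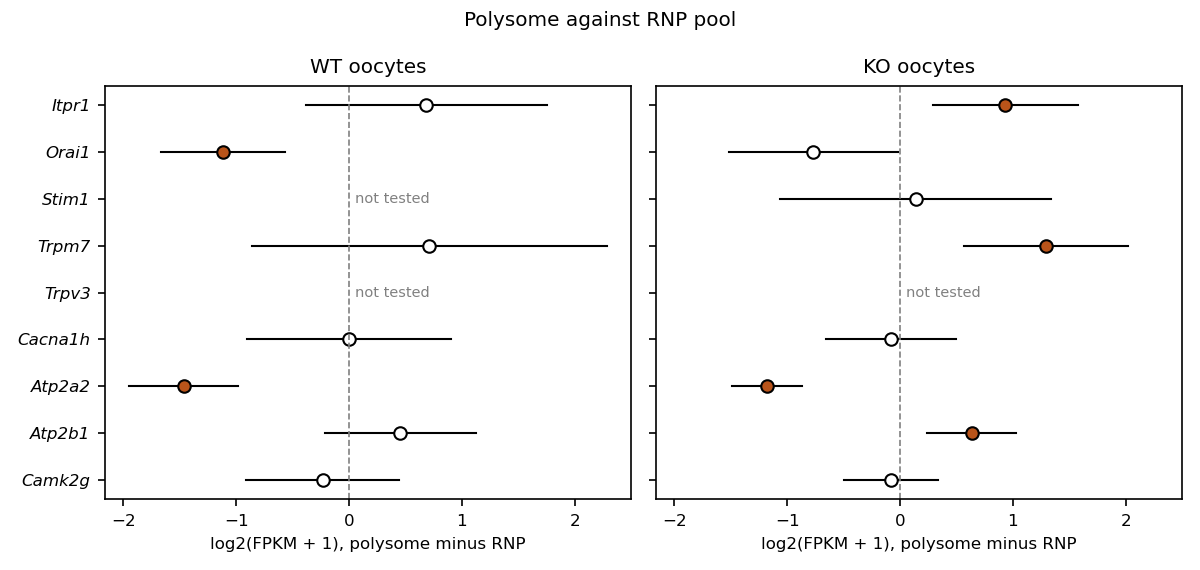
Difference between pools, polysome minus RNP on the log2(FPKM + 1) scale (horizontal axis), for each transcript in WT (left) and KO (right) oocytes, with 95% limma intervals. Filled points passed an adjusted p of 0.05. *Atp2a2* lay at -1.46 in WT and -1.18 in KO, and *Orai1* at -1.12 and -0.77.

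A model of all 12 libraries, added after these values had been seen, gave the pool difference averaged over both genotypes. In it *Atp2a2* was lower in polysomes, with a difference of -1.32 (SE 0.125, limma adjusted p = 3.4e-06) as was *Orai1*, at -0.94 (SE 0.224, limma adjusted p = 0.00598). *Itpr1* was higher by 0.81 (SE 0.254, limma adjusted p = 0.0276) and *Atp2b1* by 0.54 (SE 0.16, limma adjusted p = 0.02), and *Trpm7*, at 1.00, was not called (SE 0.395, limma adjusted p = 0.072). The background of that comparison was 30.5% of 10949 genes called, 15% higher and 15.5% lower. The same model, asked for each genotype alone, called *Atp2a2* and *Orai1* in WT and only *Atp2a2* in KO, where *Itpr1*, *Trpm7* and *Atp2b1* had adjusted p of 0.0923, 0.134 and 0.0688. Of all 10949 genes it called 1138 higher and 1045 lower in WT polysomes, and 1109 higher and 982 lower in KO polysomes. Averaged over genotypes, *Atp2a2* of the store-refilling pump and *Orai1* of the store-operated channel were thus on the RNP side. *Itpr1* of the release channels and *Atp2b1* of the extrusion pumps were on the polysome side in that average, though this model called neither in either genotype alone. The model was not refitted with any library left out. *Itpr2*, the release channel transcript with the higher median, differed between pools by -0.04 in WT (limma adjusted p = 0.96) and -0.09 in KO (limma adjusted p = 0.818).

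The comparison of genotypes asks whether loss of LSM14B changed these mRNAs within a pool. In the polysome pool 0 of 7 transcripts tested were called, by limma at an adjusted p of 0.05, and 1 had an unadjusted p under 0.05, and the count was also 0 without KO polysome library 2. Of all 9536 genes tested, 10.4% were called, 5.64% higher and 4.73% lower in KO, and without that library 1.64% of 9077 were called higher and 2.74% lower. In the RNP pool 0 of 8 were called higher and 1 was called lower, *Orai1*, where 20.7% of 9931 genes were called, 10.5% higher and 10.2% lower. The median difference of the transcripts, KO minus WT, was 0.15 in polysomes and 0.14 in RNP, against 0.10 and 0.05 over all genes.

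*Orai1* fell from 96.2, 57.6 and 76.7 FPKM in the WT RNP libraries to 45.3, 47.9 and 38.4 in the KO RNP libraries. The groups did not overlap, as for 39.2% of all genes tested in RNP, and the KO mean was 0.571 of the WT mean, a difference of -0.77 (SE 0.196, limma adjusted p = 0.0225, exact permutation p = 0.1). The direction held throughout, but the call was lost without KO RNP library 1 (limma adjusted p = 0.0596), KO RNP library 3 (0.0813) or WT RNP library 1 (0.0612). It was also lost in the model of all 12 libraries (0.139), with no filter on low values (0.0617) and with no intensity trend (0.0767). In polysomes the WT and KO levels overlapped, and the difference of -0.42 had a 95% interval of -1.27 to 0.42.

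*Atp2b1* was the transcript with the unadjusted p under 0.05 in polysomes. All 3 KO polysome libraries, at 32.9 to 33.4 FPKM, stood above the 3 WT libraries, at 17.9 to 24.97, a difference of 0.55 (SE 0.232, limma adjusted p = 0.172), which was also 0.55 without KO polysome library 2 (limma adjusted p = 0.36). In all, 2 of the 7 tested transcripts, *Atp2b1* and *Itpr1*, had genotype groups that did not overlap in polysomes, where 31.7% of all tested genes did. In RNP *Atp2b1* differed by 0.37 (SE 0.234, limma adjusted p = 0.3), and over both pools in the added model by 0.46 (SE 0.16, limma adjusted p = 0.0502).

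*Atp2b1* is also a transcript for which the study's LACE-Seq, a map of RNA contacts of LSM14B in oocytes, lists contact sequences. The paper reports such contacts on very many mRNAs, so being listed does not set *Atp2b1* apart. Whether the other members are listed is not reported here. Of the 15 read here, 13 matched exons of its longest coding transcript of 21 exons in GENCODE M21, and 12 of these were 20 bases long, with 9 in the coding sequence and 3 in the 3′ UTR. Shown here are the first and last coding contacts and the 3 in the 3′ UTR, with GRCm38 coordinates on the plus strand, written 5′ to 3′ in lower case because no motif was marked in them. They place the contacts of LSM14B along the mRNA whose polysome level is given above, and no test links the contacts to that level.
exon 4, chr10:98986927-98986946: aaggagaaacggggtggatt
exon 21, coding, chr10:99023047-99023066: aatagaaatgaacaagtctg
exon 21, 3′ UTR, chr10:99024327-99024346: ggttcttcagacagctcagc
exon 21, 3′ UTR, chr10:99024707-99024726: tgagacaattgaatttccag
exon 21, 3′ UTR, chr10:99024747-99024766: ctaccttcttcctttgtctg

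*Camk2g* had negative KO minus WT differences in both pools, neither of which passed the test. Its RNP level was 55.6, 112 and 87.7 FPKM in WT and 56.0, 52.3 and 53.4 in KO, and the difference was -0.59 (SE 0.227, limma adjusted p = 0.098). WT RNP library 1 lay within the KO range, and without it the difference was -0.87 (limma adjusted p = 0.00896). Leaving out each library in turn gave -0.87 to -0.37, and the transcript was called only without that library. In polysomes the difference was -0.44 with a 95% interval of -1.05 to 0.17, and -0.55 without KO polysome library 2 (limma adjusted p = 0.374). Averaged over both pools it was -0.52 (SE 0.19, limma adjusted p = 0.0643).

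*Stim1* (chr7:102267806-102437319, plus strand) was listed at 0 in all 3 WT polysome libraries and at 0.665, 2.36 and 5.19 FPKM in the KO ones. In RNP it was at 1.46, 0 and 0.0447 FPKM in WT and 1.22, 3.68 and 1.50 in KO, a difference of 1.11 with overlap (SE 0.504, limma adjusted p = 0.155). The KO polysome values corresponded to an estimated 17.8, 49.6 and 99.4 fragments. The transcript was too low for the test in polysomes alone. In the added model of 12 libraries it had 1.70 in polysomes (SE 0.531, limma adjusted p = 0.0451) and 1.41 over both pools (SE 0.375, limma adjusted p = 0.0143), where 25% of genes were called, 14% higher and 11% lower. It entered that model through libraries at 1 FPKM or more that were mostly KO, so its difference there supports nothing on its own. The summed granulosa and cumulus markers were also higher in KO in both pools, through 5 of 8 markers in polysomes and 8 of 8 in RNP, and their part in it was not tested.

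The remaining transcripts gave no call between genotypes. *Atp2a2* differed by 0.15 in polysomes (95% interval -0.33 to 0.63) and by -0.13 in RNP (-0.48 to 0.21), with both intervals short of a doubling. *Cacna1h* differed by 0.08 (-0.70 to 0.87) and 0.16 (-0.56 to 0.88). *Itpr1* differed by 0.37 (-0.51 to 1.26) and 0.13 (-0.72 to 0.97), and *Trpm7* by 1.14 (-0.33 to 2.61) and 0.56 (-0.37 to 1.48), intervals too wide to read as no change. *Trpv3* (chr11:73267388-73300363, plus strand), a channel known to gain activity as oocytes mature into eggs, had an estimated 0 to 44.7 fragments per library. It was at 0.0721, 0 and 0.28 FPKM in WT polysomes, 0.06, 0.592 and 1.23 in WT RNP, 0.405, 0.172 and 0.273 in the polysomes of KO oocytes, and at most 0.0673 in their RNP. It was too low for the test in every comparison, and no difference is read from it.

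**Figure D4:**
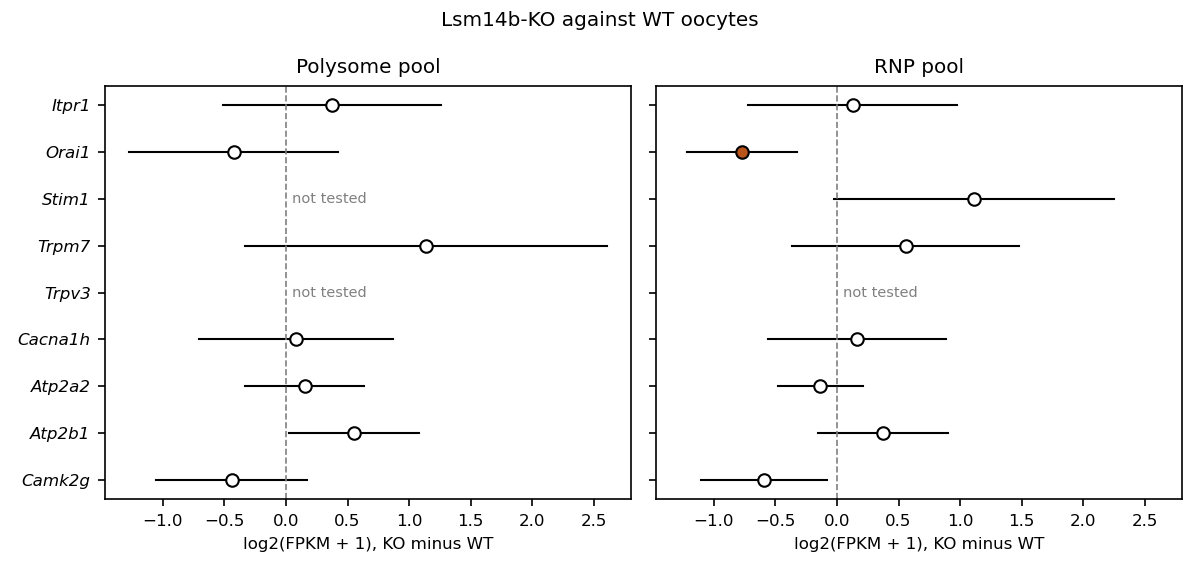
Difference between genotypes, KO minus WT on the log2(FPKM + 1) scale (horizontal axis), for each transcript in the polysome pool (left) and the RNP pool (right), with 95% limma intervals. The filled point, *Orai1* in RNP at -0.77, passed an adjusted p of 0.05, and the interval of *Atp2b1* in polysomes, 0.02 to 1.08, lay above 0 without passing after adjustment.

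The change of the polysome-to-RNP ratio between genotypes was tested as an interaction term of genotype with pool in a fit to the 12 libraries. By limma 0 of 8 transcripts were called and 0 had an unadjusted p under 0.05, where 26 of 10949 genes, 0.237%, were called, 0.0822% higher and 0.155% lower. The median change was 0.27 for the tested transcripts and 0.04 over all genes. The change was above 0 for 7 of 8 transcripts and for 5736 of the 10949 genes. The calls made in KO but not in WT for *Itpr1*, *Trpm7* and *Atp2b1* were therefore not shown to differ between genotypes.

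The transcripts were next set among 97 calcium genes grouped by role, of which they are 9. In polysomes 7 of 48 tested were higher in KO and 1 lower, beside 5.64% and 4.73% of all genes. In RNP 4 of 46 were higher and 5 lower, close to the 10.5% and 10.2% of all genes. The ER calcium-binding proteins had 2 of 5 higher in KO polysomes, *Hspa5* and *Calr*. *Hspa5*, which encodes the ER chaperone BiP, was at 281, 321 and 328 FPKM in KO polysomes against 106 in each WT library, a difference of 1.54 (SE 0.124, limma adjusted p = 0.000686). In RNP *Hspa5* was at 94.2, 84.2 and 96.6 FPKM in KO and 15.0, 11.0 and 18.1 in WT, a difference of 2.59 (SE 0.198, limma adjusted p = 6.22e-05). It was thus higher in KO in both pools. Among the store-operated entry genes *Saraf*, which encodes a protein that shuts store-operated entry, was higher in KO polysomes by 0.70 (SE 0.132, limma adjusted p = 0.0141).

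Of the 8 mitochondrial uptake genes, 1 was higher and 1 lower in KO RNP, *Vdac3* and *Vdac2*. *Vdac2*, an outer-membrane pore, was at 13.9, 18.9 and 8.07 FPKM in KO polysomes against 43.2, 43.7 and 49.7 in WT, a difference of -1.74 (SE 0.316, limma adjusted p = 0.0124), and differed by -1.53 in RNP (SE 0.211, limma adjusted p = 0.00137). Similar copies of the *Vdac* genes could have shared reads in the authors' counting, so these values are less certain. Also called in RNP were *Vdac3* (0.61), which was higher, and *Tmem38b* (-1.17), an ER cation channel that balances charge during calcium release, which was lower.

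*Fbxo43* encodes EMI2, which holds the egg in meiotic arrest until the calcium rises and CaMKII bring about its destruction. It was at 43.0, 37.3 and 30.1 FPKM in KO RNP against 78.1, 80.5 and 82.6 in WT RNP, a difference of -1.12 (SE 0.159, limma adjusted p = 0.0016). In polysomes *Fbxo43* was at 25.7, 28.3 and 23.7 FPKM in KO against 44.3, 65.7 and 34.8 in WT. That difference of -0.83 had the same direction but was not called (SE 0.264, limma adjusted p = 0.0828). The genes of IP3 generation had 0 of 2 tested called in either pool, as had the plasma membrane pumps and exchangers. Without KO polysome library 2, 3 of 46 tested calcium genes were higher and 1 lower in KO polysomes. *Hspa5* (1.51, limma adjusted p = 0.00522) and *Vdac2* (-2.00, 0.0174) were still called there, and *Saraf* (0.65, 0.0712) and *Calr* (0.43, 0.153) were not.

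**Figure D5:**
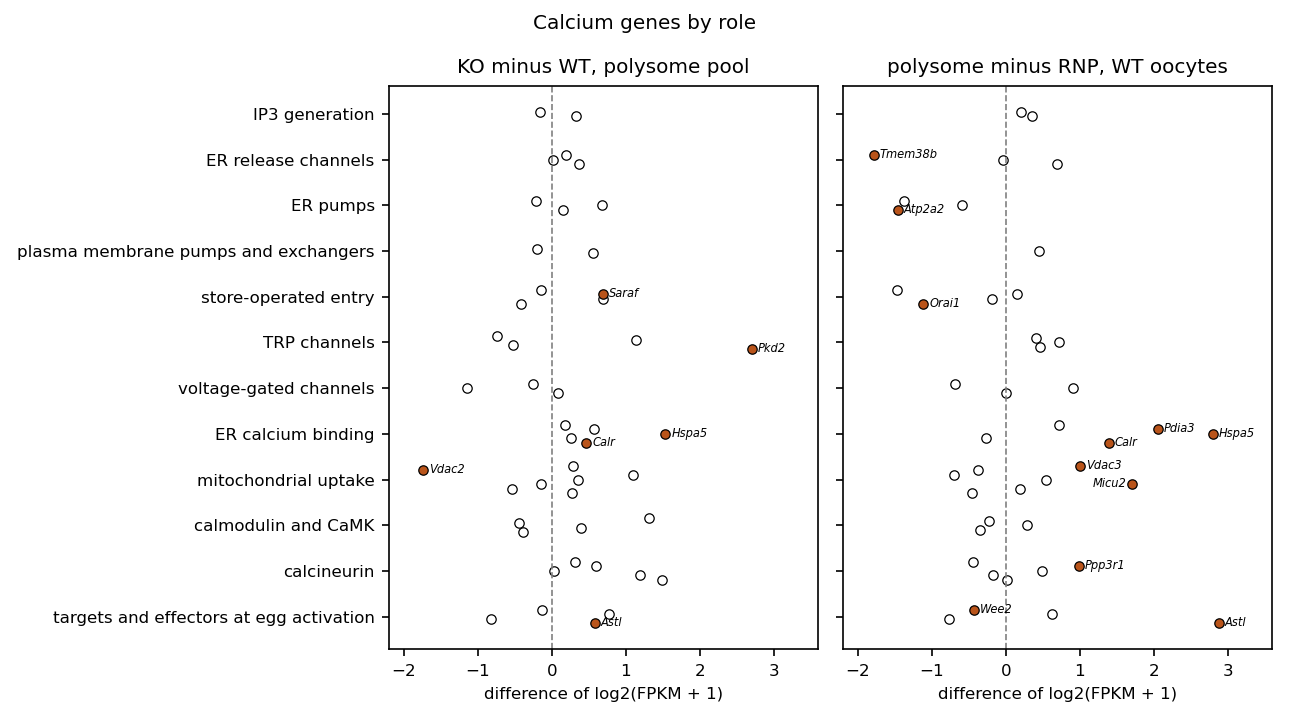
Differences of log2(FPKM + 1) (horizontal axis) of the calcium genes tested and reported here, arranged by role, for KO minus WT in the polysome pool (left) and polysome minus RNP in WT oocytes (right). Filled, named points passed a limma adjusted p of 0.05. *Pkd2*, named on the left, entered that test only through KO libraries. In WT, *Hspa5*, *Pdia3* and *Calr* lay on the polysome side, and *Atp2a2*, *Orai1* and *Tmem38b* on the RNP side.

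Between pools, in WT 9 of 45 tested genes of the wider list were higher in polysomes and 4 lower, beside 7.97% and 6.72% of all genes. In KO 16 of 47 were higher and 3 lower, beside 15.5% and 13.8%, and without KO polysome library 2 there were 14 higher and 5 lower of 46, beside 13.5% and 13.4%. Of the 5 ER calcium-binding proteins, 3 were higher in polysomes in WT and 4 in KO, and *Canx*, a membrane-bound chaperone of the ER, was called in neither, at -0.27 and 0.18. *Hspa5* differed by 2.80 in WT (SE 0.229, limma adjusted p = 0.000183) and *Pdia3*, an ER thiol oxidoreductase, by 2.06 (SE 0.404, limma adjusted p = 0.0114). *Astl*, which encodes the cortical granule protease ovastacin that modifies the zona pellucida after fertilization, was at 793 to 952 FPKM in WT polysomes and 96.2 to 167 in WT RNP, a difference of 2.88 (SE 0.203, limma adjusted p = 6.89e-05). In KO the *Astl* difference was 3.36 (SE 0.102, limma adjusted p = 1.64e-07), and 3.38 without KO polysome library 2.

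The lower genes were few. Besides *Atp2a2* and *Orai1*, *Tmem38b* was at 10.9, 4.25 and 3.31 FPKM in WT polysomes and 17.7, 21.5 and 25.5 in WT RNP, a difference of -1.79 (SE 0.442, limma adjusted p = 0.0289). In KO, *Tmco1*, which encodes a protein of the ER membrane, differed by -1.70 (SE 0.281, limma adjusted p = 0.00193) and *Wee2*, an oocyte kinase acting on CDK1 at egg activation, by -0.46 (SE 0.0955, limma adjusted p = 0.00646). Without KO polysome library 2 these were -1.70 and -0.45 (limma adjusted p = 0.00509 and 0.0198). Both had the same direction in WT. There *Wee2* was also called, at -0.43 (SE 0.107, limma adjusted p = 0.0309). *Tmco1*, at -1.37, was not called there (SE 0.403, limma adjusted p = 0.0538).

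For the 5 members that themselves averaged 5 FPKM or more, the transcripts whose levels followed each most closely over the 12 libraries were sought among the 6680 genes that averaged 5 FPKM or more. The points come from the same 12 libraries of 4 groups, so these correlations describe shared profiles only. *Atp2a2* was followed most closely by *Igf2bp2* (r = 0.973), *Kif17* and *Stk24*, and *Atp2b1* by *Eif4h* (r = 0.966), *Champ1* and *Smad3*. *Orai1* was followed by *Rbm15b* (r = 0.925), *Sla2* and *Lysmd4*, *Cacna1h* by *Tom1l1* (r = 0.917), *Cwf19l2* and *Rragc*, and *Camk2g* by *Smarcad1* (r = 0.852), *Zfp652* and *Grhl1*. Among the members, the closest pair on the same scale was *Itpr1* and *Trpm7* (r = 0.83), followed by *Itpr1* and *Atp2b1* (r = 0.761) and *Atp2a2* and *Orai1* (r = 0.732), over the same 12 libraries.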

How the data were processed

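The authors mapped reads to mm10 with TopHat2 2.0.13 and deposited FPKM per gene and library from Cufflinks 2.2.1. Strand and annotation release are not given in the sources used here, the labels and methods name different library kits, and the methods and labels differ in the top sucrose concentration. The deposited table also holds the authors' comparisons between groups and libraries (log2 changes, p-values, q-values), which were not used. The members, the list of 97 calcium genes and the markers were chosen with earlier results of these data known.

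Each comparison was fitted with limma 3.58.1 (R 4.3.3, trend) on log2(FPKM + 1), for genes at 1 FPKM or more in at least 3 of its libraries, with Benjamini-Hochberg adjustment at 0.05 over all genes tested. Log2 differences of low genes are understated by the pseudocount of 1. Python 3.11.15, pandas 2.3.3, numpy 2.4.6, scipy 1.17.1 and matplotlib 3.10.9 gave the exact two-sided permutation tests and plots. The limma step was tested on simulated data. Depth was estimated from steps of low FPKM values, taking the effective transcript length as the annotated length less 200 bases, and intervals on FPKM cover the spread between libraries. Positions are from GENCODE M21 (GRCm38). Exons of *Itpr1*, *Cacna1h*, *Atp2a2* and *Orai1* overlap opposite-strand genes over at most 1.62% of their bases. Besides the members, relatives and *Lsm14b*, the text names, per comparison, up to 3 called calcium genes in each direction with a mean of at least 5 FPKM, by size of change, and the 3 genes closest to each member. *Calr*, *Canx*, *Pkd2* and the marker genes were named outside this rule. Some called calcium genes are counted but not reported here. Protein sequences were not used here.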

Additional observations from a re-analysis of the deposited data

How the results depend on the processing

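Of 603 differences of single members recomputed under an alternative, 553 kept their direction and call, 22 changed direction, 25 lost a call and 3 gained one. Most of the 603 were of differences not called in the main fit, which had no call to lose, so 553 does not measure how firm the calls are. The 25 lost calls were of *Orai1*, *Itpr1*, *Trpm7* and *Atp2b1*, and none was of *Atp2a2*. The alternatives were pseudocounts of 0.1 and 5, no filter or a filter at 5 FPKM, libraries rescaled to 1 median, quantile normalization, no intensity trend, a replicate block, leaving out each library, and a model of all 12 libraries, which was chosen after seeing the data. No rescaling moved the median of all genes by over 0.1. FPKM holds no counts, so no count model was run, and genes as low as *Trpv3* and *Stim1* are limited by depth.

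With no intensity trend, the wider list had 4 genes higher in KO polysomes (7 before, *Pkd2* included) and 3 lower in KO RNP (5 before). It had 5 higher and 1 lower in WT polysomes than WT RNP (9 and 4 before), while 0 members were lower in KO RNP and 1 in WT polysomes. With no filter 0 members were lower in KO RNP and 2 genes of the wider list were higher. In the model of 12 libraries 1 member was higher and 3 of the wider list were lower in KO polysomes, 0 members and 2 of the wider list were lower in KO RNP, and 0 members were higher in KO polysomes than KO RNP. The 1 member was *Stim1*, which entered that model mostly through KO libraries, so its call supports nothing on its own. Of all 10949 genes that model called 938 higher and 778 lower in KO polysomes, and 760 higher and 679 lower in KO RNP. *Cacna1h* between WT pools changed from -0.002 to 0.0052 with a pseudocount of 0.1, to 0.032 with rescaled medians and to 0.021 with quantile normalization. Over all genes, 989 were called between genotypes in polysomes, and 508 with no intensity trend to 1716 in the model of 12 libraries; in RNP these were 2057, and 1439 to 2173. Between WT pools 1406 were called, and 728 with no trend to 2183 in the model of 12 libraries, and between KO pools 2881, and 2091 to 2968. The ratio had 26, and 0 with the replicate block to 38 with rescaled medians. The cause was not tested.

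Same-numbered libraries did not deviate together (correlations of -0.0207 to 0.0255), so the replicate numbers are not read as pairs. With the replicate block, 2 members were lower in KO polysomes than in KO RNP, *Orai1* joining (limma adjusted p = 0.0477) and *Itpr1* lost (0.0699).

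Leaving out each library in turn gave these ranges of calls. Over all genes they were 383 to 790 between genotypes in polysomes, 1255 to 1911 in RNP, 780 to 1212 between WT pools, 2030 to 2909 between KO pools and 0 to 46 for the ratio. In polysomes, KO against WT, the wider list had 3 to 7 higher and 1 to 3 lower. In RNP it had 1 to 5 higher and 3 to 5 lower, with 0 to 1 members lower. Between WT pools 1 to 2 members and 1 to 4 of the wider list were lower. Between KO pools 0 to 2 members were higher and 1 to 2 lower, and 3 to 5 of the wider list were lower. Differences that changed sign ranged, in polysomes, from -0.10 to 0.18 for *Cacna1h*. In RNP they ranged from -0.17 to 0.28 for *Itpr1*, -0.079 to 0.47 for *Cacna1h* and -0.27 to 0.0028 for *Atp2a2*. For the ratio they ranged from -0.15 to 1.11 for *Trpm7*, -0.39 to 0.16 for *Cacna1h*, -0.073 to 0.43 for *Camk2g* and -0.045 to 0.72 for *Orai1*. Between WT pools *Cacna1h* ranged from -0.24 to 0.31. Between KO pools *Cacna1h* ranged from -0.26 to 0.015, *Camk2g* from -0.20 to 0.12 and *Stim1* from -0.32 to 0.62.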
